A study of Mus musculus with 8 samples.

Results

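The 10 genes described here, which encode surface markers of mouse haematopoietic stem and progenitor cells, were measured on 8 arrays. They were chosen by name, with earlier results of these data known: 7 markers enriched on stem cells (Adgrg1, Procr, Slamf1, Esam, Robo4, Tek and Trpc6) and 3 enriched on progenitors (Cd48, Cd27 and Cd34). The gene lists described further below were chosen in the same way. All 10 were measured, each by 1 probe set that carried no other gene symbol, of 19938 genes in all. The arrays held RNA of bone marrow cells of C57Bl/6 mice. Cells positive for the receptor c-Kit had received either a lentivirus expressing KLF7, a zinc finger transcription factor of the Krüppel-like family (4 arrays), or a control virus (4 arrays). At 72 hours, lineage-negative cells that carried c-Kit and Sca-1 were sorted from both cultures, and their RNA was amplified. The species of the KLF7 sequence, the promoter that drove it, the content of the control virus and the number of mice are not given in the labels. The labels do not tie any array to a culture or mouse of its own, so a p-value here reflects array-to-array spread, and that spread may be technical.

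Stem cells and the progenitors that descend from them are told apart in mouse bone marrow by combinations of surface proteins. The SLAM receptor CD150 (Slamf1) marks stem cells, whereas its relative CD48 appears on progenitors, and CD34 and CD27 are gained as mouse stem cells become multipotent progenitors. Several stem cell markers, among them EPCR (Procr), ESAM, ROBO4 and TIE2 (Tek), are shared with endothelium, and ESAM and CD150 also occur on megakaryocytes or platelets.

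Values are RMA intensities on the log2 scale, and a difference is the KLF7 mean minus the control mean. Klf7 itself, the check of the labels, averaged 10.80 ± 0.55 on KLF7 arrays and 9.04 ± 1.00 on control arrays (SD, n = 4 each), and the groups overlapped because the array KLF7 2 (10.19) lay below control 2 (10.28). The Klf7 difference of 1.76 (SE 0.46) had an adjusted p of 0.327 in limma, so Klf7 did not pass the test over all genes. An exact two-sided permutation test of its 8 values gave p = 0.0571. KLF7 and control are therefore used only as the labels of the arrays. Kit, which encodes the sorted receptor c-Kit, averaged 9.68 ± 1.24 on KLF7 arrays and 9.36 ± 0.69 on control arrays (SD, n = 4 each), and was lowest in each group on the array numbered 4 (7.85 on KLF7 4 and 8.33 on control 4). Ly6a, which encodes Sca-1, was not analysed here. Genes of lymphocytes, which the lineage gate removes, had list means of 4.21 to 4.46 on KLF7 arrays and 4.29 to 4.48 on control arrays, where the median of all genes lay between 5.77 and 5.85 on the 8 arrays. Monocyte, macrophage and dendritic genes lay above that median, with list means of 8.39 to 9.53 on KLF7 and 7.41 to 8.74 on control arrays. Itgam, on that list, averaged 9.99 on KLF7 and 9.43 on control arrays. The lymphocyte list therefore does not speak for the gate as a whole. The arrays carry no detection call, so absence cannot be read from a low intensity. By mean level, Procr, Slamf1, Esam, Robo4 and Tek lay in the dimmer 50% of genes. No scan date, slide or batch is given in the labels. The arrays numbered 4 stood apart in both groups.

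The comparison of KLF7 with control found no surface marker gene that passed the test over all genes. In limma with Benjamini-Hochberg adjustment over 19938 genes, 0 of the 10 had an adjusted p under 0.05, as had 0% of all genes. At an unadjusted p under 0.05 stood 2 of the 10, Adgrg1 and Trpc6, both with a lower mean on KLF7 arrays, where 8.21% of all genes had such a p and 3.56% had it with a lower KLF7 mean. The stem-enriched markers did not differ in 1 direction. Of the 7, 2 had a lower mean and 5 a higher one, and of the 3 progenitor-enriched markers 1 had a lower mean and 2 a higher one, where 49.6% of all genes had a lower and 50.4% a higher KLF7 mean. The median difference was 0.14 for the stem-enriched markers, with a range of -1.44 to 0.49, and the median was 0.05 without KLF7 4. It was 0.03 for the progenitor-enriched markers, with a range of -0.59 to 0.44, against 0.0019 over all genes. The progenitor median had no settled sign: it was negative in 5 of the 8 fits that left out 1 array, from -0.17 without control 3 to 0.33 without KLF7 1, and -0.14 with quantile normalization applied again. The mean difference of the stem-enriched markers was -0.12, opposite in sign to their median, because Adgrg1 and Trpc6 lay far below the other 5. For the progenitor-enriched markers the mean, -0.04, was likewise opposite in sign to the median.

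**Figure D1:**
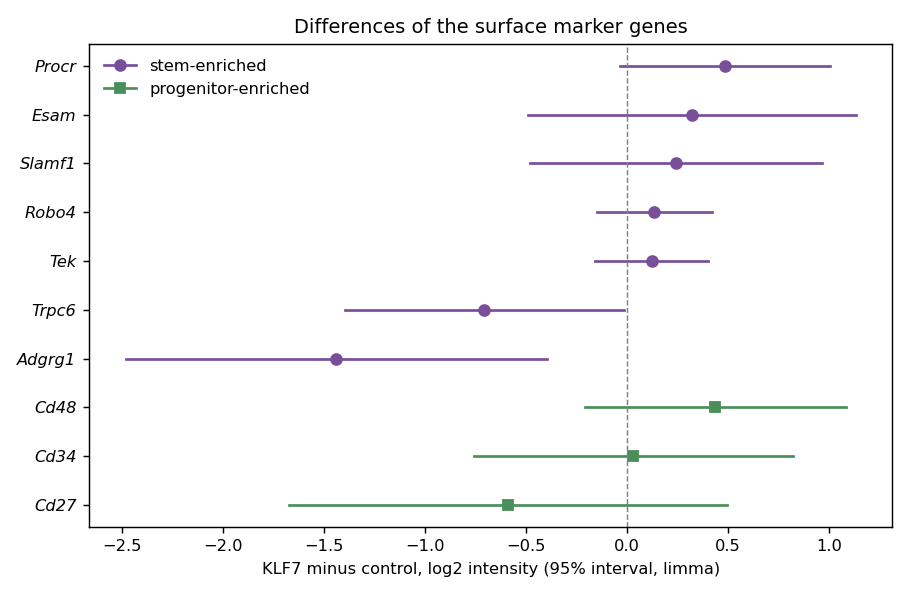
KLF7 minus control difference in log2 intensity (x axis) for each surface marker gene (y axis), with the 95% interval from limma over 4 KLF7 and 4 control arrays. Circles are stem-enriched and squares progenitor-enriched markers. The intervals of Adgrg1 (-2.48 to -0.40) and Trpc6 (-1.40 to -0.01) lie below 0 and those of the other 8 genes span it, none of them adjusted for the number of genes.

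Adgrg1 encodes GPR56, an adhesion G protein-coupled receptor of stem cells and early progenitors. On the KLF7 arrays numbered 1 to 4 it had log2 intensities of 6.93, 8.87, 8.49 and 9.37, and on the control arrays 9.85, 9.49, 9.46 and 10.61. Every KLF7 array lay below every control array, and KLF7 1 lay far below the other KLF7 arrays. Adgrg1 was the 1 member of 10 whose groups did not overlap, where 5.22% of all genes did not (2.38% with KLF7 lower and 2.83% with KLF7 higher). The difference of -1.44 (SE 0.47, 2.72-fold lower, n = 4 each) had an unadjusted p of 0.0114 and an adjusted p of 0.442 in limma. An exact two-sided permutation test of these 8 values gave p = 0.0286, the smallest that 70 splits allow. Without KLF7 1 the difference was -0.95, and without KLF7 4 it was -1.76.

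Trpc6 encodes a calcium-permeable cation channel whose transcript is enriched in mouse stem cells. Its levels were 5.51, 6.15, 6.00 and 6.93 on KLF7 arrays 1 to 4, and 6.62, 7.23, 6.29 and 7.27 on control arrays 1 to 4. The KLF7 arrays numbered 1 to 3 lay below all control arrays, and KLF7 4 lay among them. The difference was -0.71 (SE 0.31, 1.63-fold lower) with an unadjusted p of 0.0461 and an adjusted p of 0.603 in limma, and the exact two-sided permutation test gave p = 0.143. Leaving out 1 array at a time kept the sign, with values of -0.97 to -0.49, and an unadjusted limma p under 0.05 remained in 2 of these 8 fits.

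**Figure D2:**
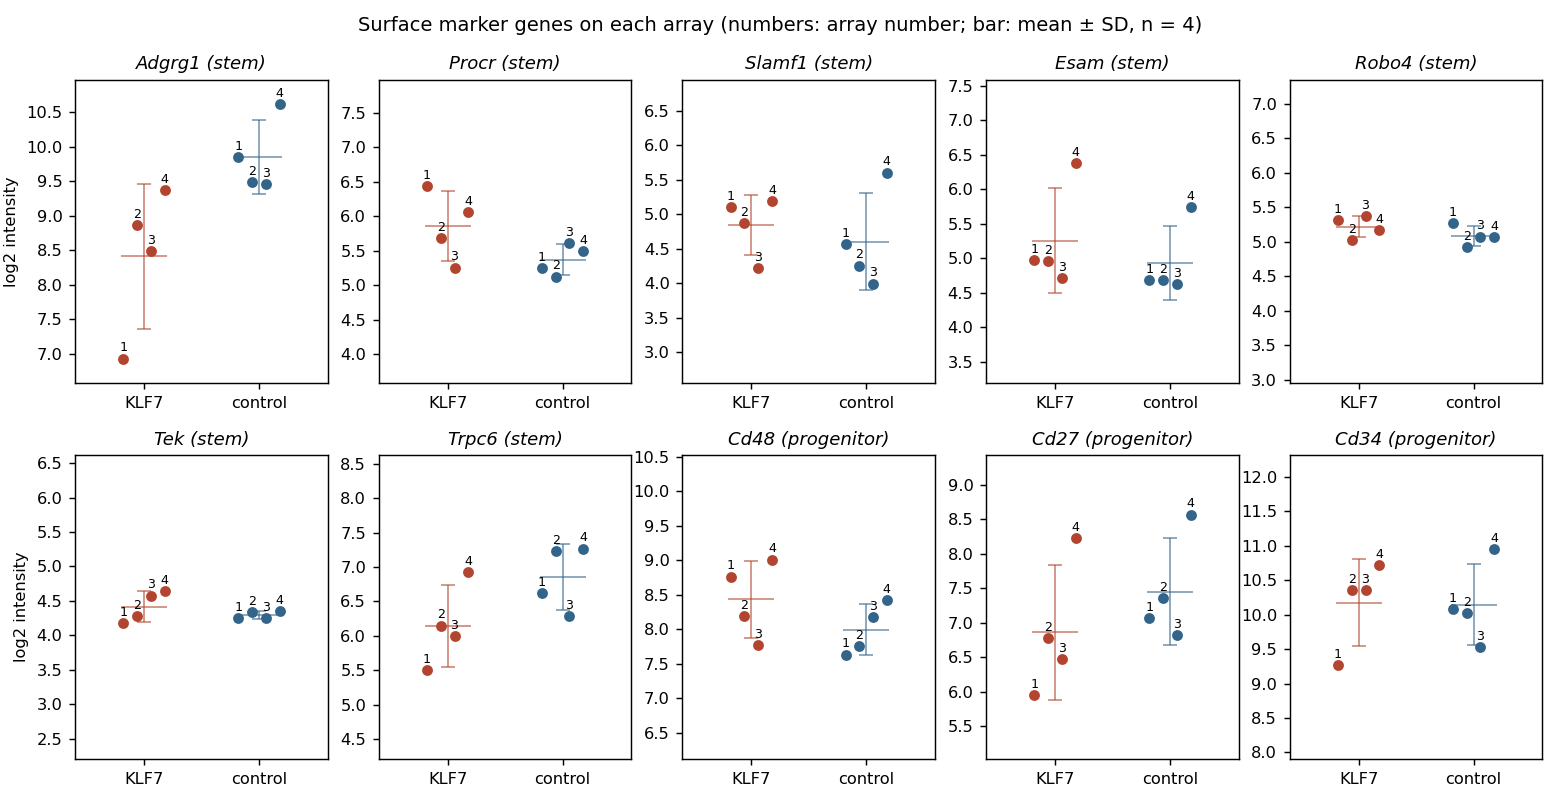
Log2 intensity (y axis, the same span in each panel) of the 10 surface marker genes on the 4 KLF7 arrays (left) and the 4 control arrays (right). Points carry the array number, and bars give the mean ± SD (n = 4). Adgrg1 is the gene whose groups do not overlap, and the point numbered 4 is the highest of its group on both sides for 8 of the 10 genes.

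KLF factors bind GC-rich and CACCC-type DNA, and the sequence before the start of the leading members is shown for this reason. RefSeq promoter windows of build GRCm38.p6 were used for 9 of the 10 members, and the 250 bases before each start were searched on both strands for CCNCNCCC and for CCACCC, which may overlap. CCNCNCCC lay in 5 of the 10 windows of these 9 genes, where 45.9% of 32851 RefSeq windows of this length held it. CCACCC lay in 4 of the 10, against 28.1% of windows. Capitals mark the matches to either motif. They are letters in a window and not binding sites, and no binding was measured here. Adgrg1 has 2 windows, of which the upstream one held both motifs and the downstream one neither. The Trpc6 window held neither motif, nor did those of Tek, Cd48 and Cd34. Both motifs lay in the windows of Procr and Slamf1, whose means were higher on KLF7 arrays, and of Cd27, whose mean was lower. The Robo4 window held CCNCNCCC alone. A relation of the motifs to the direction of a difference was not tested. All 4 windows printed below lie on the plus strand.
Adgrg1 upstream window, chr8:94976859-94977108: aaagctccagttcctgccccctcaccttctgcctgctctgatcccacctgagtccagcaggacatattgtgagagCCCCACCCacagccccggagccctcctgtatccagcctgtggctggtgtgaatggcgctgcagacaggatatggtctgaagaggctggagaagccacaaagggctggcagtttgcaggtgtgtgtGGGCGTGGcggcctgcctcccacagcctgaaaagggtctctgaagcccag
Adgrg1 downstream window, chr8:94984149-94984398: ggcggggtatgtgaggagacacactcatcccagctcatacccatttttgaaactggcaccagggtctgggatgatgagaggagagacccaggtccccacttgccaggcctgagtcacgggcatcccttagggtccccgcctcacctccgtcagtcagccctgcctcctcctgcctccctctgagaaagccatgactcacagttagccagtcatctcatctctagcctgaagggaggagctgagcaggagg
Trpc6, chr9:8543892-8544141: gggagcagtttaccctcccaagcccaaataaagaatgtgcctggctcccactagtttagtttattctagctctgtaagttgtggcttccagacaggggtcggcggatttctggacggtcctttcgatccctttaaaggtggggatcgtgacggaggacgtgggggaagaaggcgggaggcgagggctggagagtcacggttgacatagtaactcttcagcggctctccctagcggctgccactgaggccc
Procr, chr2:155750967-155751216: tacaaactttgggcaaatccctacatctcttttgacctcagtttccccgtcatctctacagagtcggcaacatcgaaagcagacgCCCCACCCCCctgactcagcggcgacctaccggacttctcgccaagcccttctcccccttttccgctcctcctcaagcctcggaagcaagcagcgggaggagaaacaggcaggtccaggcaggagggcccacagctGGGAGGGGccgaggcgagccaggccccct

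Procr encodes the endothelial protein C receptor (EPCR), which marks the most primitive stem cells. Its levels were 6.43, 5.68, 5.26 and 6.06 on KLF7 arrays 1 to 4, and 5.25, 5.13, 5.61 and 5.49 on control arrays 1 to 4. KLF7 1, 2 and 4 lay above all control arrays, and KLF7 3 lay among them. The difference was 0.49 (SE 0.23, 1.40-fold higher), with a 95% interval of -0.03 to 1.01 and an adjusted p of 0.644 in limma. It was 0.30 without KLF7 1 and 0.69 without KLF7 3.

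Tek, Robo4 and Esam encode the other proteins that stem cells share with endothelium. Tek, the receptor of the angiopoietins, had 4.17, 4.28, 4.58 and 4.64 on KLF7 arrays, against 4.25, 4.33, 4.25 and 4.36 on control arrays. Robo4, a guidance receptor that helps stem cells lodge in marrow, had 5.31, 5.02, 5.37 and 5.16 on KLF7 arrays, against 5.27, 4.92, 5.07 and 5.06 on control arrays. Both genes overlapped between the groups and spanned less than any other member. The 95% interval of the difference was -0.16 to 0.40 for Tek and -0.15 to 0.42 for Robo4, so a change of 2-fold lies outside both unadjusted intervals, though both genes are dim and RMA compresses dim genes. Esam, an adhesion molecule of tight junctions, had 4.98, 4.95, 4.71 and 6.38 on KLF7 arrays, against 4.68, 4.68, 4.63 and 5.74 on control arrays. The array numbered 4 was the high one in both groups, and the difference of 0.32 (SE 0.37, adjusted p 0.926 in limma) was -0.05 without KLF7 4 and 0.59 without control 4.

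Slamf1 and Cd48 encode the SLAM pair by which mouse stem cells are most often sorted, and the 2 genes lie in the SLAM cluster of chromosome 1. Slamf1, the stem cell marker CD150, had 5.10, 4.87, 4.22 and 5.19 on KLF7 arrays and 4.56, 4.25, 3.99 and 5.60 on control arrays. Cd48 had 8.76, 8.19, 7.77 and 9.01 on KLF7 arrays and 7.63, 7.76, 8.18 and 8.42 on control arrays. The groups overlapped for both. The differences were 0.24 (SE 0.33, 95% interval -0.48 to 0.97, adjusted p 0.941) for Slamf1 and 0.44 (SE 0.29, 95% interval -0.21 to 1.08, adjusted p 0.788) for Cd48 in limma, with the same sign. These intervals leave room for changes of either direction. Without control 3 the Slamf1 difference was 0.04, and without control 4 it was 0.58. The Cd48 difference was 0.25 without KLF7 4 and 0.66 without KLF7 3.

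Cd27 and Cd34 are the other progenitor-enriched markers. Cd27, a receptor of the tumour necrosis factor receptor family, had 5.95, 6.78, 6.48 and 8.23 on KLF7 arrays, against 7.06, 7.36, 6.82 and 8.57 on control arrays. The array numbered 4 was the high one in each group, and the other 3 KLF7 arrays lay below all 4 control arrays. The difference was -0.59 (SE 0.49, adjusted p 0.854 in limma), with values of -1.05 without KLF7 4 and -0.22 without control 4. Cd34, a sialomucin that marks multipotent progenitors in the mouse, had 9.27, 10.35, 10.36 and 10.71 on KLF7 arrays, against 10.07, 10.02, 9.53 and 10.95 on control arrays. KLF7 1 was the lowest of all arrays and control 4 the highest, and the difference of 0.03 (SE 0.36, adjusted p 0.995 in limma) was 0.33 without KLF7 1 and -0.17 without control 3.

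The arrays numbered 4 had the highest level of most members. In both groups 8 of the 10 genes were highest on the array numbered 4, the exceptions being Procr and Robo4, where 18.9% of all genes were highest on both arrays. Against the control mean of each gene, the progenitor-enriched markers averaged 0.79 on KLF7 4 and 0.78 on control 4, and between -0.54 and -0.09 on the other 3 KLF7 arrays and between -0.35 and -0.15 on the other 3 control arrays. For the stem-enriched markers the averages were 0.39 on KLF7 4 and 0.45 on control 4, with -0.37 to -0.17 on the other KLF7 arrays and -0.24 to -0.07 on the other control arrays. KLF7 1 was the lowest KLF7 array for 5 members, Adgrg1, Trpc6, Cd27, Cd34 and Tek, and the share of all genes lowest there was not counted. Klf7 was at 11.43, 10.19, 11.05 and 10.52 on KLF7 arrays 1 to 4, and a relation of the members to its level was not tested.

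**Figure D3:**
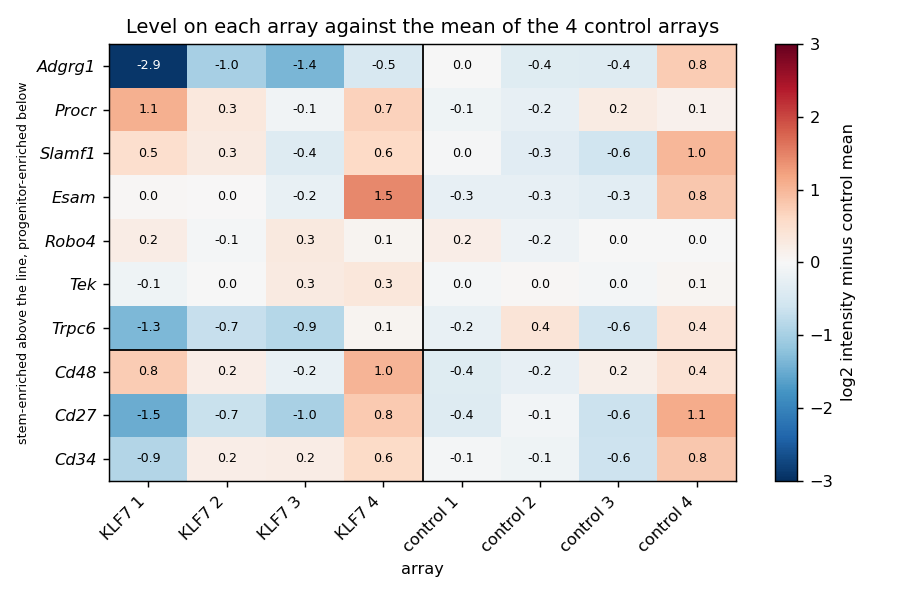
Log2 intensity of each surface marker gene (rows) on each array (columns, KLF7 left of the line and control right) minus the mean of its 4 control arrays, with the value in each cell. The columns numbered 4 are raised for most genes in both groups, and Adgrg1 is lowest on KLF7 1.

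With both arrays numbered 4 left out, the differences kept their signs for all 10 members (n = 3 each). Adgrg1 was at -1.51, Trpc6 at -0.83 and Cd27 at -0.68, and Procr was at 0.46, Slamf1 at 0.46, Cd48 at 0.39 and Esam at 0.22. Adgrg1, Trpc6, Cd27 and Esam then did not overlap between the groups (4 of 10, where 15.2% of all genes did not), and 0 of the 10 passed in limma (smallest adjusted p 0.329). Between the 2 arrays numbered 4 alone, KLF7 minus control was -1.25 for Adgrg1, -0.34 for Trpc6, -0.34 for Cd27, 0.56 for Procr and 0.59 for Cd48. Slamf1 and Cd34 turned round there, at -0.41 and -0.23, while Esam was at 0.64.

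Markers of other cell types also differed between arrays. The 8 mast cell and basophil genes had a mean level of 9.10, 10.21, 10.27 and 6.61 on KLF7 arrays, against 9.10, 9.83, 9.84 and 6.25 on control arrays, so that they were low on both arrays numbered 4. The 8 megakaryocyte genes, a lineage that shares Slamf1 and Esam, were highest there, at 7.49, 8.42, 7.67 and 9.06 on KLF7 arrays and 8.07, 7.99, 7.89 and 9.44 on control arrays. The 11 neutrophil genes ran from 7.55 (KLF7 4) to 10.03 (KLF7 3) in the KLF7 group and from 7.49 (control 4) to 10.07 (control 3) in the control group. In all 3 lists none had an unadjusted p under 0.05, and their part in the marker levels was not tested. Amounts of RNA per cell and numbers of cells of a type cannot be told apart in these bulk samples.

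**Figure D4:**
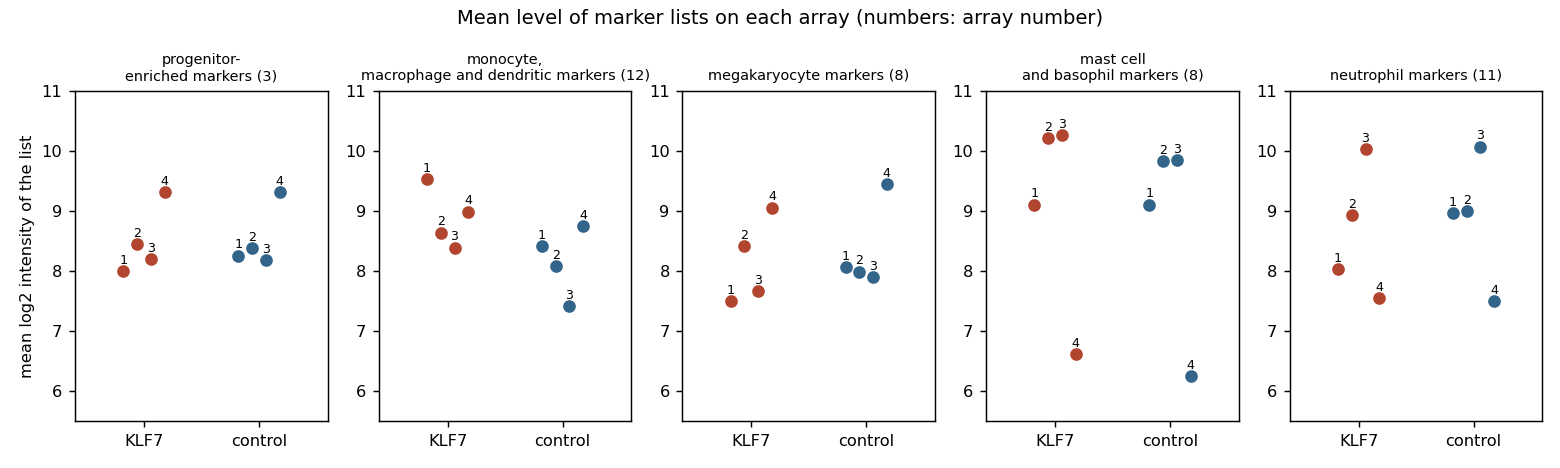
Mean log2 intensity (y axis, cut at 5.5) of the progenitor-enriched markers and of marker lists of 4 other cell types on the 4 KLF7 arrays (left) and 4 control arrays (right) of each panel, with array numbers beside the points and the number of genes in the title. The points numbered 4 are high for progenitor-enriched and megakaryocyte genes and low for mast cell and neutrophil genes in both groups.

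Of 12 measured markers of monocytes, macrophages and dendritic cells, 11 had a higher mean on KLF7 arrays, with a median difference of 0.74. An unadjusted p under 0.05 was reached by 8, each with a higher mean, where 4.65% of all genes did. None passed over all genes, and the list was chosen with earlier results of these data known. Their mean level was 8.39 to 9.53 on KLF7 arrays and 7.41 to 8.74 on control arrays, with KLF7 1 the highest and control 3 the lowest. Ccr2, a chemokine receptor of monocytes (difference 0.62, SE 0.18), Itgax, the integrin CD11c (1.29, SE 0.38), and Adgre1, a macrophage receptor (0.86, SE 0.27), had the smallest p. CD48 is also carried by such mature cells, and the part of these cells in the Cd48 difference was not tested.

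The endothelial genes had, for the most part, slightly lower means on KLF7 arrays, where Procr, Tek, Robo4 and Esam had higher ones. Tek (0.12) and Robo4 (0.14) lay near the median absolute difference of all genes, 0.13. Procr was at 0.49 and Esam at 0.32, which was -0.05 without KLF7 4. Whether these markers differed from the endothelial genes was not tested. Of 14 endothelial genes measured, 12 had a lower and 2 a higher mean on KLF7 arrays, where 49.6% of all genes had a lower one. The median difference was -0.09, with none at an unadjusted p under 0.05. Their mean level was 5.14 to 5.35 on KLF7 arrays and 5.29 to 5.41 on control arrays. Cdh5, which defines endothelium, lay at 4.40 ± 0.03 on KLF7 arrays and 4.47 ± 0.19 on control arrays (SD, n = 4 each), and Kdr at 4.26 ± 0.06 on KLF7 arrays and 4.38 ± 0.18 on control arrays. Egfl7 (-0.54, SE 0.33), Flt1 (0.30, SE 0.21) and Ramp2 (-0.21, SE 0.16) had the smallest p, and Egfl7 was at -0.23 without control 4. Of the other lineages, all 5 erythroid genes had a lower mean (median -0.26), and 6 of 11 lymphocyte genes a higher one (median 0.08), again with none at an unadjusted p under 0.05.

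Other surface genes of stem cells had means on both sides. Of 22 measured, 10 had a higher and 12 a lower mean on KLF7 arrays, with a median difference of -0.04. At an unadjusted p under 0.05 were 3 higher and 1 lower, where 4.65% of all genes were higher and 3.56% lower at such a p, and none passed over all genes. Cd9, a tetraspanin of stem cells and megakaryocytes, was at 9.32, 9.43, 8.92 and 10.20 on KLF7 arrays, against 8.25, 7.86, 7.73 and 9.46 on control arrays, a difference of 1.14 (SE 0.39, adjusted p 0.459 in limma). The KLF7 arrays were higher except that control 4 lay above 3 of them. P2ry14, a receptor of UDP-glucose, differed by 0.51 (SE 0.19), and Cd81, a tetraspanin, by -0.78 (SE 0.30), which was -0.51 without KLF7 1.

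Among 17 other progenitor surface genes, 14 had a higher mean and the median difference was 0.38, or 0.23 without KLF7 1. At an unadjusted p under 0.05 were 3 higher and 1 lower, against the same 4.65% and 3.56% of all genes, with 0 past the test over all genes. Csf3r, the receptor of the granulocyte factor G-CSF, was at 6.78, 7.18, 7.66 and 6.63 on KLF7 arrays, against 7.76, 8.90, 8.33 and 7.79 on control arrays. The groups did not overlap, as for 2.38% of all genes with KLF7 lower, and the difference was -1.13 (SE 0.30, adjusted p 0.351 in limma). Cd53, a leukocyte tetraspanin (0.62, SE 0.18), and Cd244a, a SLAM receptor that binds CD48 (0.81, SE 0.27), had higher means. Of the 17, Csf1r and Flt3 are also on the monocyte, macrophage and dendritic list.

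The SLAM family beyond Slamf1 and Cd48 included genes at an unadjusted p under 0.05, unlike those 2 members. Of 9 family and adaptor genes, 6 had a higher mean on KLF7 arrays, the median difference was 0.31 (0.18 without KLF7 1), and 4, each with a higher mean, stood at an unadjusted p under 0.05, where 4.65% of all genes did with a higher mean, and none passed over all genes. Slamf9, a family receptor of myeloid cells, was at 7.16, 7.09, 6.78 and 6.69 on KLF7 arrays, against 6.33, 5.89, 6.36 and 6.52 on control arrays. Its groups did not overlap, as for 2.83% of all genes with KLF7 higher, and the difference was 0.66 (SE 0.18, adjusted p 0.368 in limma). Sh2d1b1, the adaptor EAT-2, differed by 1.20 (SE 0.36), Cd244a by 0.81 (SE 0.27) and Slamf7 by 1.21 (SE 0.40), of which Slamf7 also separated the groups and was picked out with its values known. Ly9, another receptor of the family, was at -0.02 (SE 0.22). Whether the family differed from Slamf1 and Cd48 was not tested.

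**Figure D5:**
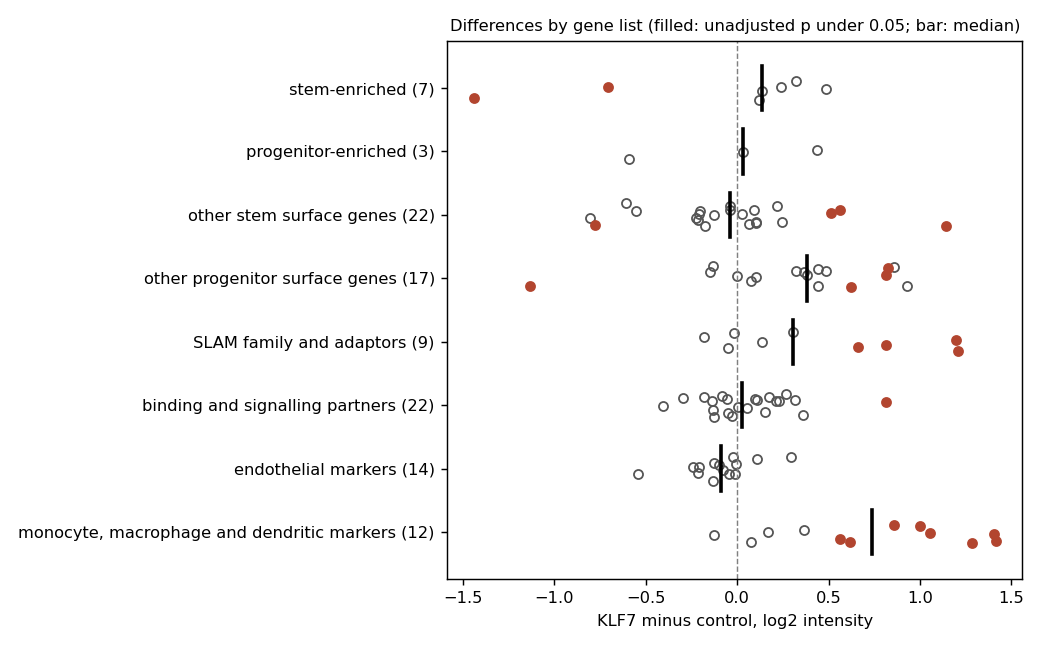
KLF7 minus control difference in log2 intensity (x axis) of each measured gene of 8 lists (rows, number of genes in brackets). Filled points had an unadjusted limma p under 0.05, none passed adjusted over all genes, and the bar is the list's median. The bar lies at 0.14 for stem-enriched markers, 0.03 for progenitor-enriched markers and 0.74 for monocyte, macrophage and dendritic genes.

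The genes whose products bind or signal with the members had a median difference near 0. Of 22 measured partners, 12 had a higher and 10 a lower mean on KLF7 arrays, with a median difference of 0.03. Cd244a was the 1 partner of 22 at an unadjusted p under 0.05, where 8.21% of all genes had such a p. Gna13, a G protein subunit that GPR56 can engage (0.36, SE 0.16), and Unc5b, a binding partner of ROBO4 (0.32, SE 0.18, and 0.19 without KLF7 3), followed. The groups of Gna13 did not overlap, as for 2.83% of all genes with KLF7 higher. Angpt1, the ligand of TIE2, was at -0.41 (SE 0.33) and Tie1, its co-receptor, at -0.13 (SE 0.24). Angpt1 was at -0.12 without control 4 and -0.13 without KLF7 1, and Tie1 was at 0.02 without KLF7 1. Cd70, the ligand of CD27, was at 0.05 (SE 0.12), and Tgm2, a ligand of GPR56, at 0.0029 (SE 0.34), and both changed sign with 1 array left out.

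The levels of members across the 8 arrays are described by Pearson correlations, whose points share the groups and the array numbers. Adgrg1 and Trpc6 had r = 0.87 over 8 arrays and 0.82 over the 6 without the arrays numbered 4. Procr and Cd48, a stem and a progenitor marker, had r = 0.89 over 8 and 0.98 over 6 arrays. Trpc6 and Cd27 had 0.89 over 8 and 0.97 over 6, so that the genes paired across the stem and progenitor classes as well as within them. The pair Esam and Cd27 had 0.74 over 8 arrays and -0.63 over 6, a relation that rested on the arrays numbered 4. The genes most like Adgrg1 in level were Cdca7l, a MYC-interacting nuclear protein (r = 0.997 over 8 arrays), Dkc1, the pseudouridine synthase dyskerin (0.989), and Pabpc1, a poly(A)-binding protein (0.986), among 174 genes with r over 0.9. Those most like Trpc6 were Gemin5, a protein of the SMN complex (0.972), Smim20 (0.971) and Abca4, a lipid transporter (0.967). KLF7 minus control was -0.72 (SE 0.28) for Cdca7l, -0.92 (SE 0.27) for Dkc1 and -0.26 (SE 0.16) for Pabpc1. It was -0.57 (SE 0.21) for Gemin5, -0.63 (SE 0.41) for Smim20 and -0.34 (SE 0.15) for Abca4. None of these genes passed the test over all genes. They were picked by a correlation that includes the group difference, so their lower KLF7 means are no separate support for that of Adgrg1 or Trpc6.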

How the data were processed

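Total RNA of sorted cells was measured on 8 single-colour arrays, 1 per sample, 4 labelled KLF7 and 4 control. The deposited values are probe set intensities. Per the submitters' processing notes, the authors used RMA and the Affymetrix Expression Console. The method corrects background, normalizes between arrays and summarises probes; the tools' versions and the build are not stated in the labels. The lowest deposited intensity was 2.20 and the highest 15393, and log2 was taken. The correlation of 2 arrays across genes was 0.936 to 0.982. The number of arrays limits the precision.

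The platform annotation gave 1 symbol to 21789 of the 35554 probe sets, several to 1621 and none to 12144; 21698 were matched by Entrez number to RefSeq (GRCm38.p6), and 0 symbols changed. The probe set with the highest mean was kept for each of 19938 genes, with no filter on dim ones. A linear model with group as its only term was fitted per gene (limma 3.58.1 under R 4.3.3, lmFit, then eBayes using the intensity trend); p-values are two-sided, adjusted by the Benjamini-Hochberg method across all genes, and called at 0.05. Tested on simulated data for KLF7 against control (19938 genes), the fit recovered 62% of 100 genes made 2-fold different and 94% of 100 made 4-fold different. It also called 5 unchanged genes. The simulated noise was independent between genes and arrays, without the differences that the real arrays share, so these shares may not hold for the real arrays.

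Named genes were the 10 members, Klf7, Kit, Ly6a, up to 3 genes per list by smallest p, and the 3 genes most correlated with each member of unadjusted p under 0.05. Others were named as defining markers of a cell type, as ligands or as neighbours. The members and the 13 lists (140 of 159 genes measured) were chosen with earlier results of these data known. The genes not measured by a probe set with 1 symbol, Ly6a among them, are not analysed here. Alternatives left out arrays, used array number 4 or the replicate number as a term, weighted arrays, normalized again, changed the prior, left out dim genes or averaged probe sets. Same-numbered arrays had deviations from their group means that correlated at 0.35, -0.13, 0.36 and 0.70 for numbers 1 to 4. Figures were drawn with matplotlib 3.10.9.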

Additional observations from a re-analysis of the deposited data

Results flagged for a closer look

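Esam was the 1 surface marker gene with an array flagged by Dixon's test, which sets a gap against the range of its group, and this held in both groups. It lay at 6.38 on KLF7 4, where the nearest KLF7 array was at 4.98, and at 5.74 on control 4, where the nearest control array was at 4.68. The gap took 0.842 of the range of the KLF7 group and 0.952 of that of the control group, above the 95% critical value of Dixon's test for 4 samples. Adgrg1 was at 6.93 on KLF7 1, with the nearest KLF7 array at 8.49, but that gap took 0.638 of the range and was not flagged. Of 20 groups examined 2 were flagged, and chance flags about 1 in 20. The megakaryocyte genes were also highest and the mast cell genes lowest on these 2 arrays, and their part in the Esam level was not tested.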

How the results depend on the processing

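No surface marker gene passed in limma under any of the 19 alternatives, of which the one without dim genes tested 5 of the 10, the smallest adjusted p being 0.0907, for Adgrg1 with the replicate number as a block. Over all genes, that replicate block called 90 genes (75 higher, 15 lower), the arrays numbered 4 as a batch term called 26, and leaving out 1 array at a time called 0 to 1 (1 without KLF7 3 and 1 without control 4), against 0 in the fit with group alone. With that block 5 of the 10 markers, against 2 without it, had an unadjusted limma p under 0.05: Adgrg1 (0.0016), Trpc6 (0.0038), Cd27 (0.0078), Esam (0.035) and Procr (0.049). The share of all genes at such a p, 8.21% with group alone, was not counted with the block. The 5 markers therefore have no background to be set against. Between arrays of 1 number, Adgrg1, Trpc6 and Cd27 were lower and Esam and Robo4 higher on the KLF7 array in 4 of 4 pairs. How many of all genes kept 1 direction in every pair was not counted. The labels do not say that a number marks a shared culture or day, and the data leave the pairing unsettled: 3 of 4 pairs correlated over 0.1, the arrays numbered 2 at -0.13, and 6 of 8 arrays correlated best with their own number. Adgrg1 and Trpc6 kept their sign under all 19 alternatives, and Adgrg1 had an unadjusted p under 0.05 in all of them and Trpc6 in 10. In several of these the difference could not move, so a kept sign there says nothing. They are the replicate block, the term for arrays numbered 4, the changed prior, the dim genes left out and the averaged probe sets. Cd34 turned negative without KLF7 2 and control 2 (-0.071) and with quantile normalization applied again (-0.14), and ran from -0.17 to 0.33 with 1 array left out. Esam ran from -0.053 to 0.59 in the same way. With the dimmer 50% of genes left out, Adgrg1 and Trpc6 were the stem-enriched markers left, and their median was -1.07. The median of the megakaryocyte list ran from -0.55 (without KLF7 4) to 0.16 (without control 4), that of the mast cell list from -0.61 (without control 4) to 1.20 (without KLF7 4) and that of the neutrophil list from -0.69 (without control 4) to 0.09 (without KLF7 1). The limits are 4 arrays a group, bulk RNA, amplified RNA and dim probe sets for 5 of the 10 genes.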

Other observations

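Genes that neighbour the members on their chromosomes were also measured. Robo4 and Esam lie on chromosome 9 with 2 protein-coding genes between them, Robo3 and Msantd2. Of 6 genes between or near them, 4 had a higher mean on KLF7 arrays and 2 a lower one. Both of the latter had an unadjusted p under 0.05, as had 3.56% of all genes with a lower KLF7 mean. Ccdc15, a coiled-coil protein gene with Hepacam between it and Robo4, was at 5.65, 5.32, 5.59 and 5.89 on KLF7 arrays, against 6.13, 6.58, 6.26 and 6.41 on control arrays. Its groups did not overlap, as for 2.38% of all genes with KLF7 lower. Its difference was -0.73 (SE 0.16, adjusted p 0.323 in limma), while Robo3, an axon guidance receptor gene, was at -0.40 (SE 0.15) and Vsig2 at 0.15 (SE 0.16). The Robo4 difference was 0.14.

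Adgrg3, the adhesion receptor gene beside Adgrg1 on chromosome 8, was at -0.07 (SE 0.21), against -1.44 for Adgrg1. The other 3 measured neighbours of Adgrg1 lay between -0.10 (Drc7) and 0.27 (Ccdc102a), with Kifc3 at -0.03, and none of the 4 had an unadjusted p under 0.05. Whether Adgrg1 differed from its neighbours was not tested.

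Among neutrophil genes, Mpo (-1.11, SE 0.75), Cebpe (-0.54, SE 0.44) and Elane (-1.02, SE 0.88) had the smallest p and none an unadjusted p under 0.05, and without KLF7 4 they were at -0.54, -0.21 and -0.47. The mast cell genes with the smallest p were Ms4a2 (0.74, SE 0.90), Fcer1a (0.65, SE 1.01) and Cma1 (0.52, SE 0.95), which turned to -0.04, -0.11 and -0.17 without control 4. For megakaryocytes they were Gp9 (-0.44, SE 0.52), Treml1 (-0.30, SE 0.45) and Ppbp (-0.30, SE 0.66), which turned to 0.04, 0.12 and 0.25 without control 4.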
